A study of Mus musculus with 12 samples.

Results

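Globin and erythroid genes were measured in mouse heart by RNA sequencing, as 6 genes of the 34714 in the deposited table. They were chosen by name and with their values in these libraries already known: the beta globins Hbb-bs and Hbb-bt, the alpha globins Hba-a1 and Hba-a2, the erythroid enzyme Alas2 and the red cell anion exchanger Slc4a1. All 6 were in the table. The libraries came from a melanoma mouse model in which an antibody against the immune checkpoint receptor PD-1 (aPD1) was studied for harm to the heart and leflunomide (lef), an immunosuppressant that inhibits pyrimidine synthesis, for protection. The first group, aPD1_lef (4 libraries), was labelled with the antibody and leflunomide, and the second, aPD1_veh (4 libraries), with the antibody and veh, read here as vehicle. The third, IgG_lef (3 of 4 labelled libraries, the other not analysed here), was labelled with IgG, the control antibody, and leflunomide. Strain, age, sex, dose and duration are not in the labels. Whether libraries stand for separate animals is not in the labels either, so p-values measure the spread between libraries, which may be partly technical. No IgG_veh group is among the samples used, and going from aPD1_veh to IgG_lef changes, by the labels, the antibody and the drug at once. The 3 comparisons share libraries and are not independent.

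Adult hemoglobin is built from alpha and beta globin chains, each holding a heme group that binds oxygen. In red cell precursors Alas2 makes the first and rate-limiting product of heme synthesis, and the anion exchanger band 3, the product of Slc4a1, carries bicarbonate and chloride across the red cell membrane and anchors the membrane skeleton. Mature red cells have no nucleus, and the young circulating form, the reticulocyte, still holds RNA, mostly for globins. Transcription of these genes in precursors depends on the factors Gata1 and Klf1, which bind GATA and CACCC elements, and the heart's own oxygen-binding globin is myoglobin (Mb).

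The alpha and beta genes each exist as a pair of near-copies, which bears on every value given for them. Hbb-bs (chr7:103826523-103827928, minus strand) and Hbb-bt (chr7:103812524-103813923, minus strand) lie near each other, as do Hba-a1 (chr11:32283672-32284486, plus strand) and Hba-a2 (chr11:32296492-32297310, plus strand), by the RefSeq annotation of GRCm38. In GENCODE M21 the 441 coding bases of Hbb-bs and Hbb-bt differed at 1 base (99.8% identical), with a longest shared run of 416 bases. The 426 coding bases of Hba-a1 and Hba-a2 also differed at 1 base (99.8% identical), with a longest shared run of 380 bases. A read from the coding part can therefore rarely be told between the copies of a pair, whereas a beta and an alpha gene (Hbb-bs and Hba-a1) shared no run longer than 14 coding bases. The stretches of exon 3 around the single differences are shown because they are the only coding places that separate the copies, with the differing base in capitals: C417T from Hbb-bs to Hbb-bt and C381T from Hba-a1 to Hba-a2, counted from the A of the start codon.
Hbb-bs (chr7:103826668-103826742, minus strand): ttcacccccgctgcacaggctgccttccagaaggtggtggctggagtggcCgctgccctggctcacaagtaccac
Hbb-bt (chr7:103812659-103812733, minus strand): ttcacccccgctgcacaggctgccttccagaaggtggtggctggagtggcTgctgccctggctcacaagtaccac
Hba-a1 (chr11:32284306-32284380, plus strand): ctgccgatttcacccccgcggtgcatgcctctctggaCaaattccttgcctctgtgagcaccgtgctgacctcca
Hba-a2 (chr11:32297123-32297197, plus strand): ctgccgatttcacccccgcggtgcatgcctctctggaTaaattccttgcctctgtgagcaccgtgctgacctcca

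The 250 bases before the start of each member were compared because the values of the globins and Alas2 moved largely together across libraries. They were available for 5 of the 6 members (RefSeq, GRCm38.p6). Capitals mark matches, on either strand, to 4 motifs: the GATA motif GATAA, read as TTATC on the other strand, the Klf motif CACCC, read as GGGTG on the other strand, the CCAAT box, read as ATTGG on the other strand, and the TATA motif ATATAA, read as TTATAT on the other strand. A match describes letters and is no evidence of binding.
Hbb-bs (chr7:103827929-103828178, minus strand): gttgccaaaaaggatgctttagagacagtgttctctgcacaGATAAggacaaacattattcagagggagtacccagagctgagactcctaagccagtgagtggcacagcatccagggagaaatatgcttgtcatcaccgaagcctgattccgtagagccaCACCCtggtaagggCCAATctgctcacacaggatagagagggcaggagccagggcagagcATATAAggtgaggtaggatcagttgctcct
Hbb-bt (chr7:103813924-103814173, minus strand): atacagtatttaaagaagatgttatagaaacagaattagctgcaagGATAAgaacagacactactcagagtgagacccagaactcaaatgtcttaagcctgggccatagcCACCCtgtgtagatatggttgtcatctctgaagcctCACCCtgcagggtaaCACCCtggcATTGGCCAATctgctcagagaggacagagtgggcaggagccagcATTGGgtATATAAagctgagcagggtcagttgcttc
Hba-a1 (chr11:32283422-32283671, plus strand): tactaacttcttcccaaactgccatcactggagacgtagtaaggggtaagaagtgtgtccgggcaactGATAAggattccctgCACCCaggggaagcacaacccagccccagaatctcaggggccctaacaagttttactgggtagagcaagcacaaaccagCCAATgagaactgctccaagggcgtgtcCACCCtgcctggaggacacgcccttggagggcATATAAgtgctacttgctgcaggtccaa
Hba-a2 (chr11:32296242-32296491, plus strand): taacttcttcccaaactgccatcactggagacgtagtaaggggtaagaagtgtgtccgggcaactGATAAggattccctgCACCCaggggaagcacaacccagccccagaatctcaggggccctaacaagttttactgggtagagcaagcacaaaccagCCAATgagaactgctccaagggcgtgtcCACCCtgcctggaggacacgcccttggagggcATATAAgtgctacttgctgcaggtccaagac
Alas2 (chrX:150547167-150547416, plus strand): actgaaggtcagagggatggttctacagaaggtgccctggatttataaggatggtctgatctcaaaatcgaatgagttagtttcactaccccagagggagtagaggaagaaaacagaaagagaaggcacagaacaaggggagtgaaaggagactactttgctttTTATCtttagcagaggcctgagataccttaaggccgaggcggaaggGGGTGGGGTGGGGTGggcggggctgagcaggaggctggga
Each of the 5 windows held a GATAA match and at least 1 CACCC match. Over the 32851 upstream windows of the same length in the table, GATAA was found in 22.6%, CACCC in 52.0%, CCAAT in 33.8% and ATATAA in 9.10%. The 4 globin windows also held CCAAT and ATATAA, and the window of Alas2 held neither. The GATAA motif, the CACCC motif and the CCAAT box occurred together in the 4 globin windows and in 3.45% of all windows. The ATATAA match began at position -30 in Hbb-bs, -29 in Hbb-bt, -28 in Hba-a1 and -31 in Hba-a2, with -1 the last base before the annotated start. The windows of Hba-a1 and Hba-a2 shared a run of 247 bases, so these are one sequence shifted by the annotated start, while those of Hbb-bs and Hbb-bt shared no run longer than 14 bases. In Hbb-bt the first CCAAT pair forms ATTGGCCAAT, in which the matches on opposite strands adjoin without overlap.

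Before the values are given, the libraries that stood apart are named. The deposited values, whose unit the table does not name, were treated as FPKM (fragments per kilobase of exon, scaled to the size of the library). They summed to 393494 to 465511 per library over all genes and carried no read counts, so depth is unknown. By group the sums were 393494 to 413010 in aPD1_lef, 441935 to 465511 in aPD1_veh and 413628 to 440748 in IgG_lef. The sums of aPD1_lef and aPD1_veh thus did not overlap. Markers of working heart muscle were high in all 11 libraries, with summed values of 7 ventricular genes from 7926 to 31279, the lowest in aPD1_lef replicate 4. Atrial Myl7 was above 10 in 3 libraries, at 32.5 in aPD1_lef replicate 1, 43.0 in aPD1_lef replicate 2 and 266 in IgG_lef replicate 2, and at most 1.78 in the others. In IgG_lef replicate 3 the summed value of 10 monocyte and macrophage markers was 672, against 226 to 568 in the other libraries.

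Globins were among the most abundant transcripts in these hearts, and each of the 6 members was lower in every aPD1_lef library than in every aPD1_veh library. The 4 globin genes together made up 0.955% ± 0.0603 (SD, n = 4) of the library total in aPD1_lef, 2.42% ± 0.503 (n = 4) in aPD1_veh and 1.65% ± 1.05 (n = 3) in IgG_lef. Hbb-bs ranked 4th to 13th of all genes in aPD1_veh, 25th to 30th in aPD1_lef and 8th to 53rd in IgG_lef. The aPD1_lef libraries lay close together, with a coefficient of variation of 6.72% for Hbb-bs, against 22.2% in aPD1_veh and 64.3% in IgG_lef.

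**Figure D1:**
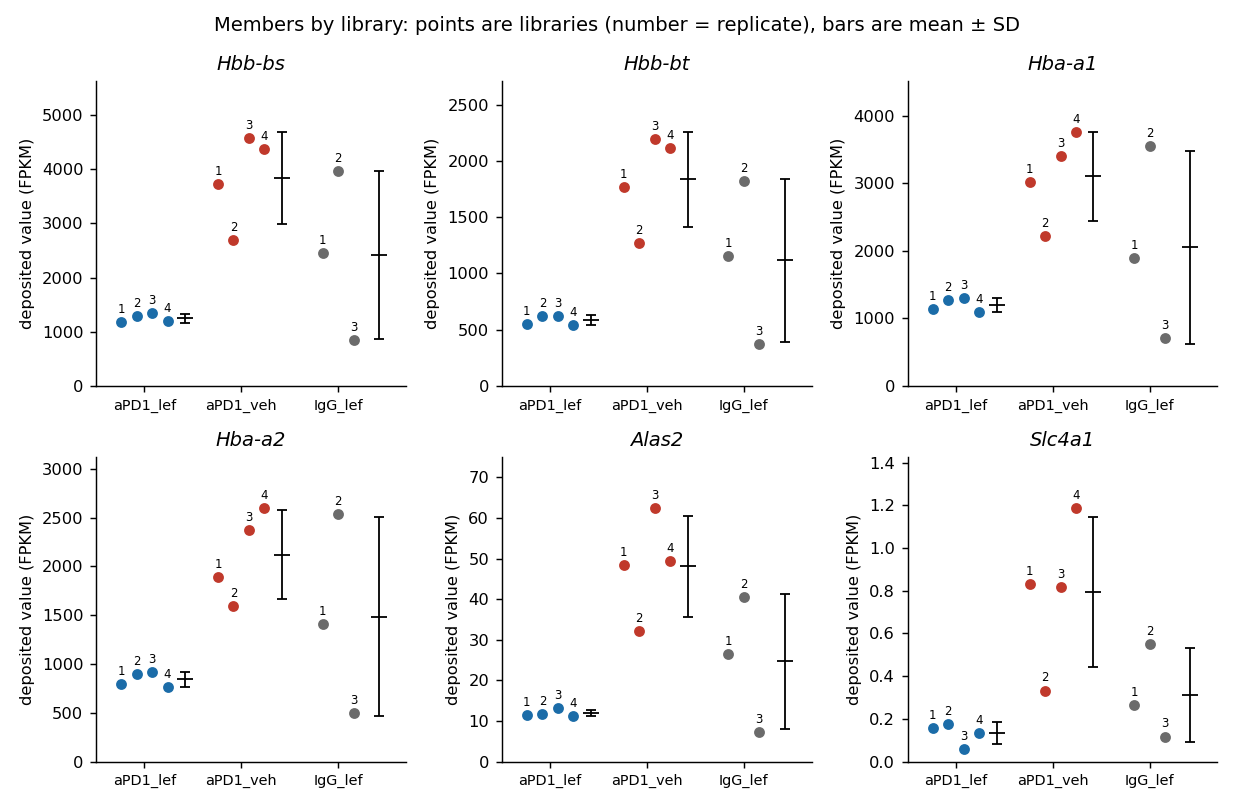
FPKM (y axis, linear, from 0) of the 6 members in each library of aPD1_lef, aPD1_veh and IgG_lef; points are libraries with their replicate number, and the black marks are mean ± SD. In every panel the 4 aPD1_lef points lie below the 4 aPD1_veh points, while IgG_lef replicate 2 lies high and replicate 3 low.

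Hbb-bs, the beta-globin gene with the highest values, was at 1172, 1285, 1353 and 1192 FPKM in aPD1_lef replicates 1 to 4. In aPD1_veh replicates 1 to 4 it was at 3725, 2686, 4577 and 4374 FPKM. In IgG_lef replicates 1 to 3 it was at 2452, 3962 and 849 FPKM. The aPD1_lef values did not overlap those of aPD1_veh, while the IgG_lef values ran from below the first group to within the second. The mean was 3.07 times higher in aPD1_veh (3841 ± 851) than in aPD1_lef (1250.5 ± 84.0), and leaving out a library of either group in turn gave 2.88 to 3.38 times. Without aPD1_lef replicate 4 it was 3.02 times.

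Its near-copy Hbb-bt was at 550.2, 618, 625 and 543 FPKM in aPD1_lef, again in replicate order. It was at 1771, 1267, 2192 and 2117 FPKM in aPD1_veh. In IgG_lef it was at 1158, 1818 and 373 FPKM. The order of the libraries was that of Hbb-bs in aPD1_veh and in IgG_lef. The mean in aPD1_veh was 3.15 times that in aPD1_lef.

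Hba-a1, the alpha-globin gene with the higher values, was at 1138, 1277, 1295 and 1089 FPKM in aPD1_lef. In aPD1_veh it was at 3018, 2225, 3405 and 3759 FPKM. In IgG_lef it was at 1891, 3556 and 706 FPKM. Here aPD1_veh replicate 4 was highest, whereas for the beta genes replicate 3 was. The mean in aPD1_veh was 2.59 times that in aPD1_lef.

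Hba-a2 was at 796, 899.7, 916 and 763 FPKM in aPD1_lef. It was at 1895, 1597, 2377 and 2604 FPKM in aPD1_veh. It was at 1415, 2537 and 499 FPKM in IgG_lef. As for Hba-a1, the aPD1_lef values were all below those of aPD1_veh and those of IgG_lef spread over both. The mean in aPD1_veh was 2.51 times that in aPD1_lef.

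Alas2 (chrX:150547417-150570622, plus strand), the erythroid form of the first heme enzyme, was at 11.6, 11.8, 13.1 and 11.3 FPKM in aPD1_lef. In aPD1_veh it was at 48.4, 32.1, 62.6 and 49.4 FPKM. In IgG_lef it was at 26.4, 40.5 and 7.37 FPKM. The ratio of means, 4.02, was above those of the 4 globins, and the lowest aPD1_veh library (32.1) lay far above the highest aPD1_lef library (13.1).

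Slc4a1 (chr11:102348820-102365281, minus strand) was near the bottom of the measured range. It was at 0.158, 0.177, 0.0603 and 0.134 FPKM in aPD1_lef and at 0.834, 0.333, 0.818 and 1.19 FPKM in aPD1_veh. In IgG_lef it was at 0.267, 0.551 and 0.118 FPKM. It reached 1 FPKM in 1 of 11 libraries and so did not enter the fit. The ratio of the means of aPD1_veh and aPD1_lef was 6.00, from values at which FPKM are imprecise.

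In all 11 libraries the levels, which FPKM give per length, ran in the same order: Hbb-bs, Hba-a1, Hba-a2, Hbb-bt, Alas2 and Slc4a1. Between neighbours in that order, the ranges of Hbb-bs and Hba-a1 overlapped in each of the 3 groups. Hba-a1 and Hba-a2, and Hba-a2 and Hbb-bt, were apart in aPD1_lef and overlapped in aPD1_veh and IgG_lef. Alas2 was apart from the globins, and Slc4a1 from Alas2, in every group. Across libraries the members moved together in part: in IgG_lef replicate 3 was lowest and replicate 2 highest for all 6, and in aPD1_veh replicate 2 was lowest for all 6. The highest aPD1_veh library was replicate 3 for Hbb-bs, Hbb-bt and Alas2, and replicate 4 for Hba-a1, Hba-a2 and Slc4a1. In aPD1_lef replicate 3 was highest for the globins and Alas2 but lowest for Slc4a1.

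That every aPD1_lef library lay below every aPD1_veh library held for 6 of 6 members. It held for 15.5% of the 12005 genes tested, but the members were chosen on this contrast, so nothing is read from their count. For the same reason the members carry no p-value. In the model of all 12005 genes, on the log2(FPKM + 1) scale, the difference of aPD1_lef from aPD1_veh was -1.59 ± 0.38 (SE) for Hbb-bs, -1.62 ± 0.39 for Hbb-bt, -1.35 ± 0.39 for Hba-a1, -1.31 ± 0.39 for Hba-a2 and -1.89 ± 0.40 for Alas2. Their median was -1.59, against a median of 0.04 over all genes tested. It was -1.22 after quantile normalization and -1.44 when every library was scaled to the same total, a scaling under which the median of all genes was 0.17. In a bulk extract, fewer cells of a type and less RNA per cell cannot be told apart.

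In the other comparisons the groups of all 6 members overlapped and the values depended on IgG_lef replicates 2 and 3. The ratio of the means of aPD1_veh and IgG_lef was 1.59 for Hbb-bs, 1.65 for Hbb-bt, 1.51 for Hba-a1, 1.43 for Hba-a2, 1.94 for Alas2 and 2.54 for Slc4a1. The median of the 5 fitted log2 differences was 0.90, against 0.01 over all genes, and it was 0.27 without IgG_lef replicate 3 and 1.40 without IgG_lef replicate 2. The mean in aPD1_lef was 0.517 times that in IgG_lef for Hbb-bs, 0.523 for Hbb-bt, 0.585 for Hba-a1, 0.569 for Hba-a2, 0.484 for Alas2 and 0.424 for Slc4a1. The median fitted difference there was -0.66, against 0.03 over all genes. It was -1.31 without IgG_lef replicate 3 and -0.17 without replicate 2, the library with the highest atrial Myl7. Without all 3 libraries with atrial transcripts it was -0.17, with 4 members negative and 1 positive.

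The make-up of the globin values differed less between libraries than their level did. Hba-a2 made up 38.6% to 42.8% of the alpha-globin value, and Hbb-bt 30.5% to 32.6% of the beta-globin value, over all 11 libraries. Because the copies share nearly all coding bases, as the exon 3 stretches show, both shares depend on how reads were assigned. The ratio of summed alpha to summed beta globin does not depend on that split within a pair. It was 1.12, 1.14, 1.12 and 1.07 in aPD1_lef. In aPD1_veh it was 0.894, 0.967, 0.854 and 0.980, and in IgG_lef 0.916, 1.05 and 0.986. All aPD1_lef ratios were above all aPD1_veh and IgG_lef ratios. The means were 1.11 ± 0.0325, 0.924 ± 0.0600 and 0.985 ± 0.0691, and being built from the members these ratios were not tested.

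**Figure D2:**
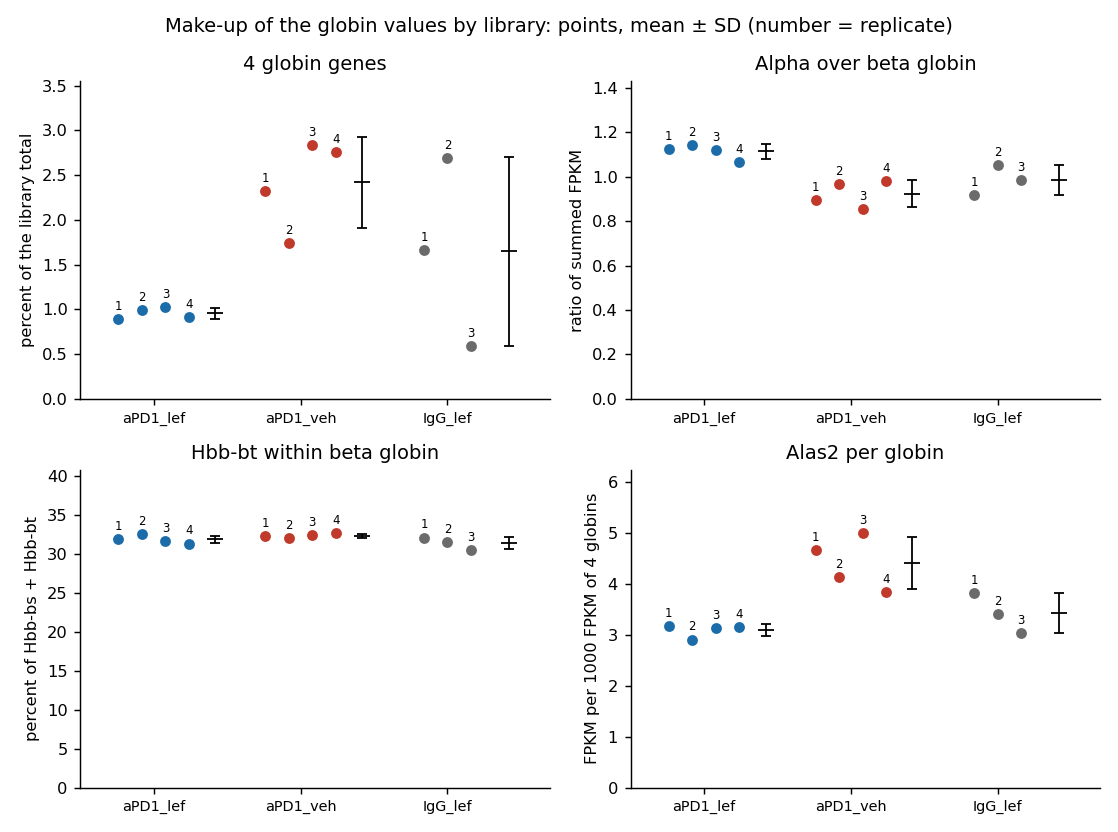
Globin make-up per library (y axes from 0): percent of the library total in the 4 globin genes, ratio of summed alpha to summed beta globin FPKM, Hbb-bt as a percent of beta globin, and Alas2 FPKM per 1000 FPKM of the 4 globins; points are libraries with replicate numbers, black marks mean ± SD. The level differs between groups, the Hbb-bt share stays between 30.5% and 32.6%, and alpha over beta is 1.07 to 1.14 in aPD1_lef and 0.854 to 0.980 in aPD1_veh.

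Per unit of globin, Alas2 was also lower in aPD1_lef than in aPD1_veh. Alas2 per 1000 FPKM of globin was 3.16, 2.90, 3.13 and 3.15 in aPD1_lef, 4.65, 4.12, 4.99 and 3.84 in aPD1_veh, and 3.82, 3.41 and 3.04 in IgG_lef. The aPD1_lef and aPD1_veh values did not overlap, and IgG_lef lay across the space between them. Slc4a1 per 1000 FPKM of globin ran from 0.0144 to 0.0434 in aPD1_lef, from 0.0428 to 0.0925 in aPD1_veh and from 0.0386 to 0.0485 in IgG_lef, so these groups overlapped.

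The spread within IgG_lef was wide for the members and narrow for most listed genes. Between IgG_lef replicates 2 and 3 the members differed 4.66-fold (Hbb-bs) to 5.49-fold (Alas2), always higher in replicate 2. The median ratio over all genes tested was 0.963, and 36 of 12000 genes (0.3%) were 3-fold or more higher in replicate 2. Of the 66 genes outside the members that passed the filter and belong to 7 lists of globin, heme and red cell genes, Hbb-b1 differed about as much, at 5.39-fold. Bpgm (1.77-fold), Car2 (1.58-fold) and the water channel gene Aqp1 (1.49-fold) differed less. Among genes lower in replicate 2 were the transferrin receptor gene Tfrc (ratio 0.297) and the heme oxygenase gene Hmox1 (ratio 0.449). Fech, for the last enzyme of heme synthesis, lay near 1 (1.02). These libraries are 1 each, so no test applies. Replicate 2 was also the library with atrial transcripts, and replicate 3 that with the highest macrophage marker sum, and the part of either in this spread was not tested.

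**Figure D3:**
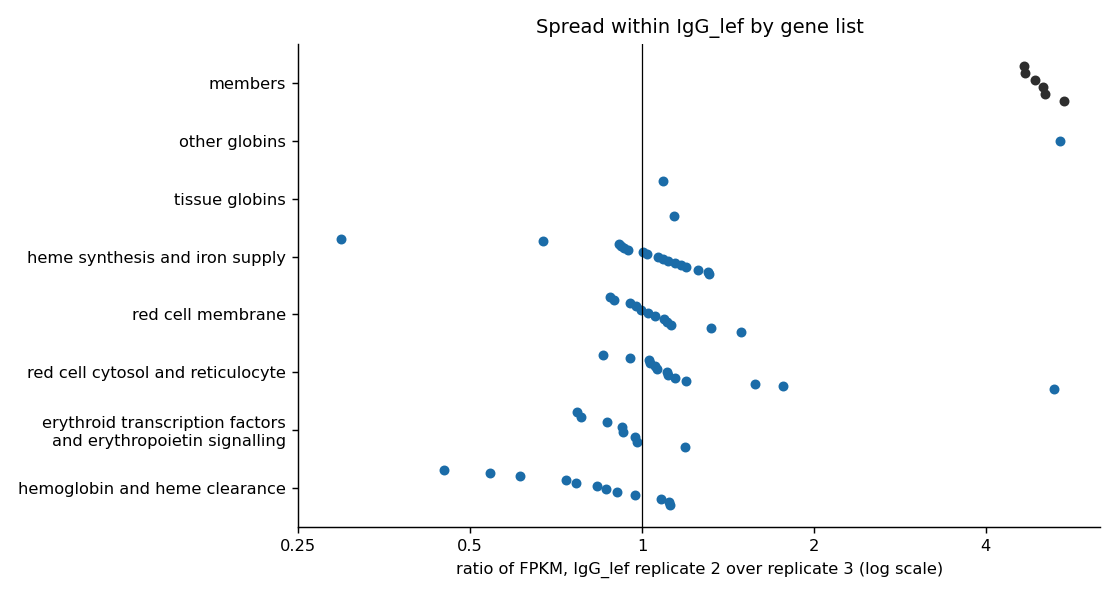
Ratio of FPKM in IgG_lef replicate 2 over replicate 3 (x axis, log scale) for the 6 members and for listed genes that passed the filter and had a value above 0 in replicate 3, by list; each point is a gene and the line marks a ratio of 1. The members and Hbb-b1 lie between 4.66 and 5.49, and most other listed genes lie near 1.

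Other genes of the pathway were taken from 7 lists of 95 genes, of which 94 were in the table and 66 passed the filter. In aPD1_lef against aPD1_veh, 25 of the 66 passed the test (limma, adjusted p under 0.05), or 37.9%, against 32.4% of all genes tested. By direction, 21 were lower and 4 higher in aPD1_lef, against 14.3% lower and 18.2% higher over all genes. Hbb-b2 and Tspan33, both counted as lower, would not have passed the filter without the aPD1_veh libraries, and of the other 64 genes 19 were lower and 4 higher. The median difference over the 66 was -0.19 on the log2(FPKM + 1) scale, against 0.04 over all genes. Many of these genes are also active in heart muscle, and the summed value of 7 ventricular muscle genes was 7926 to 22927 in aPD1_lef and 22416 to 31279 in aPD1_veh. Of these 7 muscle genes 3 passed the test as lower and none as higher. The part of the muscle difference in the calls was not tested.

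**Figure D4:**
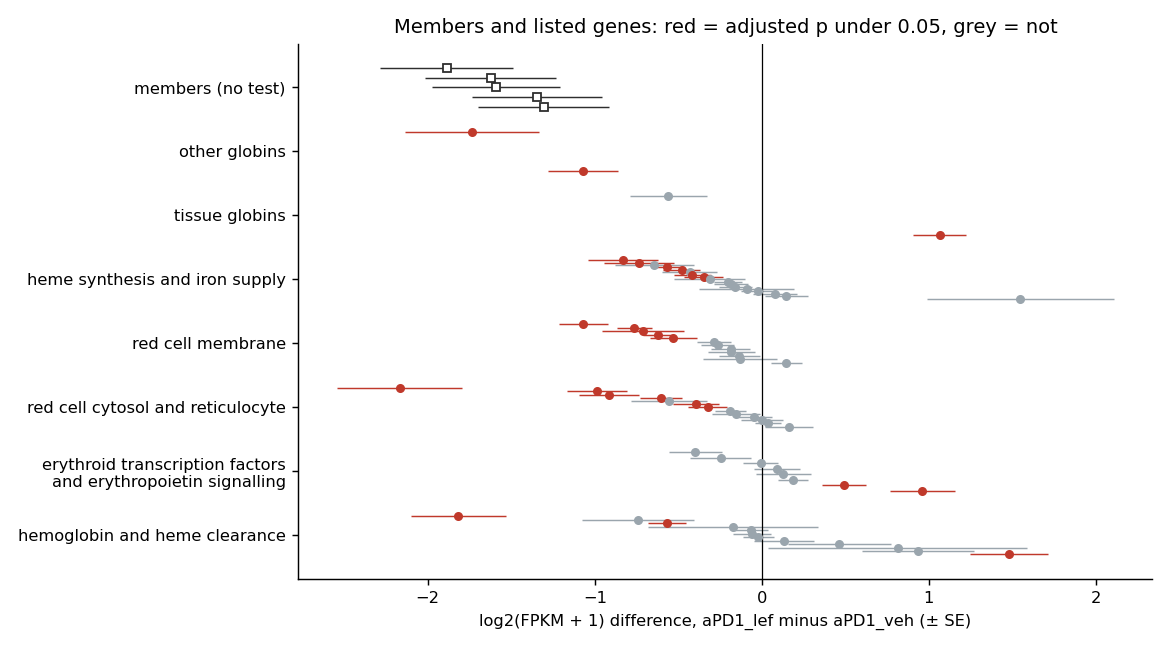
Difference of aPD1_lef from aPD1_veh on the log2(FPKM + 1) scale (x axis, points with SE bars) for the 5 fitted members (open squares, no test) and for 66 listed genes by list; red points passed the limma test at an adjusted p under 0.05. The members lie between -1.89 and -1.31, and among the listed genes Hbb-b1 and Slc40a1 lie within that range.

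Of 8 other hemoglobin genes, Hbb-b1 fell in aPD1_lef against aPD1_veh, and Hbb-b2 passed the filter only through the 4 aPD1_veh libraries. Hbb-b1 and Hbb-b2 are the adult beta-globin genes of another mouse haplotype, so a strain normally carries either them or Hbb-bs and Hbb-bt, and reads can be shared between the sets. Hbb-b1 was at 15.0, 19.2, 16.5 and 16.7 FPKM in aPD1_lef, 56.4, 41.0, 76.2 and 65.7 in aPD1_veh and 37.3, 56.1 and 10.4 in IgG_lef. The log2 difference was -1.74 ± 0.40 (limma, adjusted p = 0.0101). Its level followed that of Hbb-bs, at 1.22% to 1.66% of it in every library. Hbb-b2 was at 1.05 to 1.76 FPKM in aPD1_veh, at most 0.407 in aPD1_lef and 0, 0.810 and 0 in IgG_lef. It reached 1 FPKM in none but the aPD1_veh libraries, so it could enter the fit only by being high there and its test is not read. The embryonic globins Hbb-y, Hbb-bh1, Hbb-bh2 and Hba-x were listed at 0 in all 11 libraries, and Hbq1a and Hbq1b were below 1 FPKM in all.

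Of the globins of other tissues, myoglobin was lower and cytoglobin higher in aPD1_lef than in aPD1_veh. Myoglobin (Mb), which stores oxygen in heart muscle, was at 4262 to 9086 FPKM in aPD1_lef, 10169 to 11914 in aPD1_veh and 9165 to 10422 in IgG_lef. Every aPD1_lef library lay below every aPD1_veh library, as for 15.5% of all genes tested. The difference of aPD1_lef from aPD1_veh, -0.56 ± 0.23, did not pass the test (limma, adjusted p = 0.0866). The lowest value was that of aPD1_lef replicate 4, without which the difference was -0.30. The summed globins were about as abundant as Mb in aPD1_veh, where Mb was 0.810 to 1.33 times their sum, and Mb was 1.19 to 2.42 times their sum in aPD1_lef. Cytoglobin (Cygb), a globin of fibroblast-like cells, was at 70.7 to 115 FPKM in aPD1_lef and 39.9 to 55.2 in aPD1_veh, and rose (1.07 ± 0.16, adjusted p = 0.00145). Fibroblast markers were higher with it: 6 of 6 passed the test in the same direction, against 18.2% of all genes tested. Their summed value was 1064 to 1956 in aPD1_lef and 372 to 545 in aPD1_veh.

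In heme synthesis and iron supply, all 17 listed genes passed the filter, 6 fell and none rose. The share called, 35.3%, was near the 32.4% of all genes tested (14.3% lower and 18.2% higher). The 6 were Alad (-0.83 ± 0.21, adjusted p = 0.0141), Uros (-0.73 ± 0.21, adjusted p = 0.0239), Urod (-0.48 ± 0.11, adjusted p = 0.0102) and Fech (-0.35 ± 0.12, adjusted p = 0.0439), enzymes of the middle and last steps, and Slc25a39 (-0.57 ± 0.10, adjusted p = 0.00278) and Abcb6 (-0.42 ± 0.11, adjusted p = 0.0165), transporters of the mitochondrion and of porphyrin. The median of the list was -0.31. Alas1, the form of the first enzyme used outside red cells, did not pass (-0.09 ± 0.28, adjusted p = 0.826). It was at 39.0 to 72.1 FPKM in aPD1_lef and 33.8 to 87.1 in aPD1_veh, above Alas2 in every library but aPD1_veh replicate 3. Tfrc had mostly higher values in aPD1_lef, at 10.8 to 44.9 FPKM against 2.39 to 11.9 in aPD1_veh, and did not pass the test either. The calls of Fech and Uros were lost when single libraries were left out, Fech in 9 of 11 cases (adjusted p up to 0.119) and Uros in 3 (up to 0.0648). Without aPD1_lef replicate 4 the difference of Fech was -0.23 (adjusted p = 0.0384). That of Abcb6 was lost when libraries were scaled to the same total (adjusted p = 0.0590).

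Of the 20 red cell membrane genes, 12 passed the filter, 5 fell and none rose, with a list median of -0.27. The share called was 41.7%, against 32.4% of all genes tested (14.3% lower and 18.2% higher). That share counts Tspan33, whose test is not read for the reason given below, so nothing is read from the share. Rhd, a Rhesus blood group protein gene, was at 3.12 to 5.53 FPKM in aPD1_lef and 9.26 to 10.9 in aPD1_veh (-1.07 ± 0.15, adjusted p = 0.000979). Epb41, for membrane skeleton protein 4.1, was at 15.6 to 20.1 against 26.8 to 34.8 FPKM (-0.76 ± 0.11, adjusted p = 0.00106). Stom, for the membrane protein stomatin, was at 37.9 to 47.3 against 61.2 to 74.1 FPKM (-0.62 ± 0.09, adjusted p = 0.00133). None of these groups overlapped, as for 15.5% of all genes tested, and these genes were named for their small p. The others were the ankyrin gene Ank1 (-0.71 ± 0.25, adjusted p = 0.0464) and Tspan33. Tspan33 reached 1 FPKM in 4 aPD1_veh libraries and in 3 others. It entered the fit only through aPD1_veh, where it was high, so its test is not read. Ank1 was at 38.6 FPKM in aPD1_lef replicate 4 and 88.1 to 96.0 in the other 3, and without that library its difference was -0.41. Its call was lost in 8 of 11 cases when a library was left out (adjusted p up to 0.109).

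Defining genes of the red cell membrane were low. Rhag was at most 0.0927 FPKM, Epb42 at most 0.106 and Kel at most 0.144 in any library.

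Among genes of the red cell interior and of reticulocytes, 13 of the 18 in the table passed the filter. Of these 6 fell and none rose, with a list median of -0.33. The share called was 46.2%, against 32.4% of all genes tested (14.3% lower and 18.2% higher). Bpgm, the enzyme that makes the hemoglobin regulator bisphosphoglycerate, was at 11.8 to 17.4 against 26.3 to 36.8 FPKM (-0.99 ± 0.18, adjusted p = 0.00353). Car2, for carbonic anhydrase, was at 1.15 to 2.82 against 3.63 to 5.45 FPKM (-0.92 ± 0.18, adjusted p = 0.00488). Isca1 (-0.60 ± 0.13, adjusted p = 0.00646), Prdx2 (-0.40 ± 0.14, adjusted p = 0.0485) and Mkrn1 (-0.33 ± 0.11, adjusted p = 0.0497) also fell, and the last pair lost the call in 8 and 9 of 11 cases when a library was left out (adjusted p up to 0.131 and 0.124). Without aPD1_lef replicate 4 the difference of Prdx2 was -0.25 (adjusted p = 0.0375). Trim10 was below 1 FPKM in all libraries except aPD1_veh replicate 4 (1.23), and Hemgn, Car1, Cldn13 and Trim58 were at most 0.0754 in all.

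Erythroid transcription factors differed in level. Gata1 was at most 0.0906 FPKM, Klf1 at most 0.164 and Gfi1b at most 0.0369, while Tal1 was at 1.53 to 3.07, Zfpm1 at 6.33 to 8.83, Ldb1 at 13.9 to 19.2 and Lmo2 at 14.9 to 28.1 FPKM. Nfe2 and Bcl11a stayed below 1 FPKM in all libraries, and Epo, for the hormone that drives red cell formation, was listed at 0 in all 11 libraries. Of the 14 genes of this list 8 passed the filter. In aPD1_lef against aPD1_veh none fell and 2 rose (25%, against 14.3% lower and 18.2% higher over all genes tested). These were Kit, a receptor of precursor and mast cells (0.96 ± 0.19, adjusted p = 0.00550), and Lmo2, which is also made in endothelium (0.49 ± 0.13, adjusted p = 0.0170). Leaving out the 3 libraries in which atrial transcripts were found ended the call of Lmo2 (adjusted p = 0.101). The receptor gene Epor, at 0.749 to 2.49 FPKM, did not pass (adjusted p = 0.317).

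Of 14 genes that clear hemoglobin, heme and iron, 12 passed the filter, 2 fell and 1 rose. The share called was 25%, below the 32.4% of all genes tested (14.3% lower and 18.2% higher). Slc40a1, for the iron exporter ferroportin, was at 2.40, 4.51, 1.88 and 1.64 FPKM in aPD1_lef and at 6.71, 9.96, 19.3 and 11.7 in aPD1_veh (-1.82 ± 0.29, adjusted p = 0.00187). In IgG_lef it was at 5.88 to 6.64 FPKM, without the spread between replicates 2 and 3 seen in the members. Fth1, for the ferritin heavy chain, was at 1120 to 1379 against 1619 to 1962 FPKM (-0.57 ± 0.11, adjusted p = 0.00535), a call lost under quantile normalization (adjusted p = 0.379). Lrp1, the receptor that takes up heme bound to hemopexin and many other ligands, rose (1.48 ± 0.23, adjusted p = 0.00186). The scavenger receptor gene Cd163 and the heme oxygenase gene Hmox1 did not pass (adjusted p = 0.114 and 0.441), with Hmox1 at 127 FPKM in aPD1_lef replicate 4 and 8.71 to 16.2 in the other 3.

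**Figure D5:**
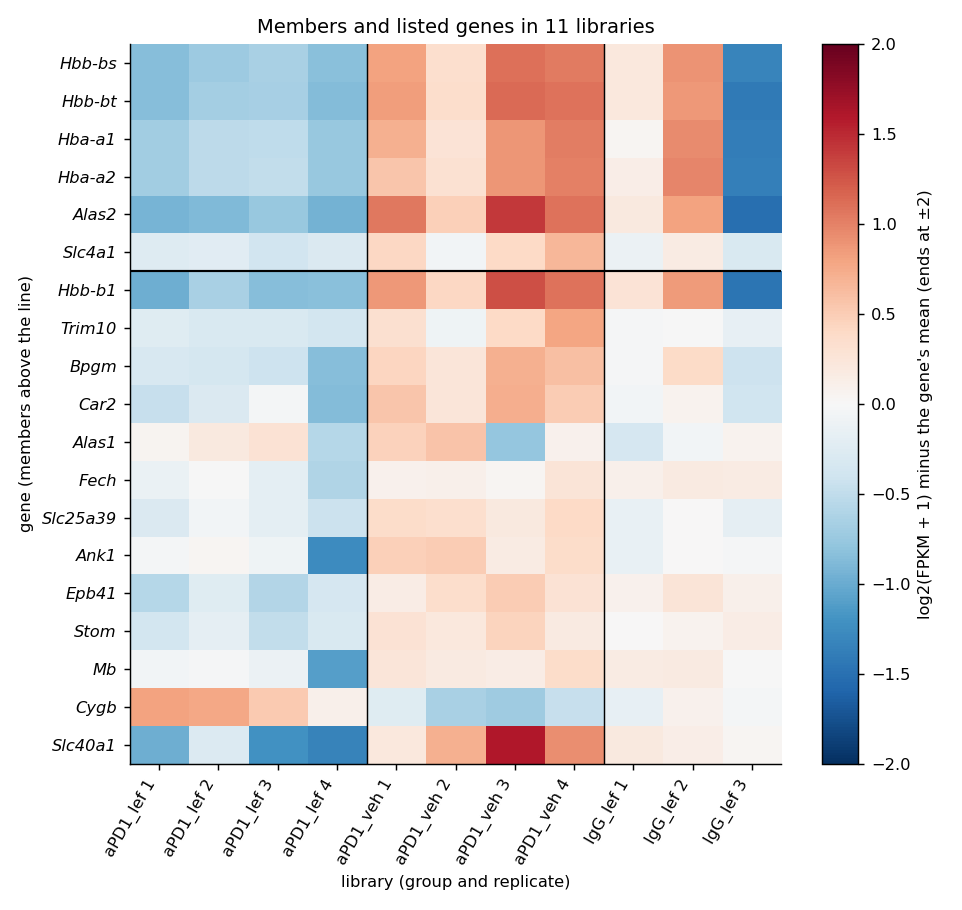
Members (above the line) and listed genes in the 11 libraries, in columns by group and replicate; colour is log2(FPKM + 1) minus the gene's mean over the libraries, with the scale ending at 2 in either direction. The globins, Alas2 and Hbb-b1 are low in the 4 aPD1_lef libraries and in IgG_lef replicate 3. Mb is lowest in the same libraries, most of all in aPD1_lef replicate 4, while Ank1 and Alas1 do not follow that order.

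Over the same 66 genes, none passed the test in aPD1_veh against IgG_lef (limma; at an unadjusted p under 0.05 there were 11 higher and 5 lower, 16 in all), where 1.17% of all genes did, 0.242% higher and 0.925% lower. In aPD1_lef against IgG_lef 5 passed, or 7.58%, against 7.16% of all genes (5.15% higher and 2.01% lower). Lrp1 rose (1.04 ± 0.25, adjusted p = 0.0394), and Rhd (-0.73 ± 0.16, adjusted p = 0.0303), Epb41 (-0.58 ± 0.12, adjusted p = 0.0232), Stom (-0.41 ± 0.10, adjusted p = 0.0378) and Ube2l6 (-0.78 ± 0.16, adjusted p = 0.0237) fell. Leaving out single libraries moved the number of calls from 0 to 15, and none of the 5 passed in every such fit. Hbb-b1 did not pass there (-0.71 ± 0.43, adjusted p = 0.286).

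The genes whose library profile was most like the mean profile of the members were named by a measure of distance, the mean absolute difference of centred log2(FPKM + 1) values over 11 libraries. Among the nearest 8 were Hbb-b1 (0.168), Timp4 (0.273), Fah (0.281), Bpgm (0.292), Ptgds (0.302), Cib3 (0.307) and Hbb-b2 (0.327). Over 11431 genes the median distance was 0.737 and the 1st percentile 0.426, and the members' own distances ran from 0.0669 (Hba-a1) to 0.435 (Slc4a1). Of the genes named, Hbb-b1, Bpgm and Hbb-b2 belong to the lists of globin and red cell genes. Cib3, like Hbb-b2, reached 1 FPKM in none but the aPD1_veh libraries. Ptgds, for a prostaglandin synthase of the heart and brain, was at 279 to 368 FPKM in aPD1_lef, 555 to 919 in aPD1_veh and 374 to 455 in IgG_lef. Its IgG_lef libraries lay close together, unlike those of the members, which spanned 4.66-fold or more. Timp4, for a metalloproteinase inhibitor of the heart, was at 9.59 to 13.7 FPKM in aPD1_lef, 24.8 to 33.5 in aPD1_veh and 17.4 to 27.3 in IgG_lef. Fah, for the last enzyme of tyrosine breakdown, was at 6.15 to 8.87, 14.2 to 22.6 and 7.77 to 11.2 FPKM in the same order.

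Markers of other blood and heart cells were compared with the members. Over all genes tested, 14.3% passed the test as lower and 18.2% as higher in aPD1_lef against aPD1_veh. Neutrophil markers summed to 3.10 to 53.0 FPKM in aPD1_lef, 49.1 to 107 in aPD1_veh and 3.29 to 15.8 in IgG_lef, with 2 of 4 tested genes lower in aPD1_lef than in aPD1_veh (S100a8, -2.77 ± 0.66, adjusted p = 0.0113, and S100a9, -2.80 ± 0.68, adjusted p = 0.0125). In aPD1_lef replicate 4 S100a8 was at 19.1 and S100a9 at 24.0 FPKM, against at most 2.18 and 1.59 in the other libraries of that group. Elane and Mpo, genes of neutrophil precursors, were listed at 0 in all libraries of both aPD1 groups, and Ly6g in all aPD1_lef libraries. In IgG_lef replicate 3 Elane was at 0.144 and Mpo at 0.067 FPKM. Platelet markers summed to 32.5 to 79.5, 36.9 to 49.4 and 29.4 to 55.0 FPKM in aPD1_lef, aPD1_veh and IgG_lef, with 1 of 5 tested genes lower in aPD1_lef (Ppbp, -1.39 ± 0.36, adjusted p = 0.0164). Most of that sum was Pf4, at 22.9 to 67.1 FPKM. Of the 6 platelet markers that did not pass the filter, 5 (Gp6, Gp9, Treml1, Clec1b and Tubb1) were lower in every aPD1_lef library than in every aPD1_veh library, as were 15.5% of the genes tested, and none of the 5 that passed it was. Tubb1, a tubulin of platelets, was at 0.0793 to 0.443 FPKM in aPD1_lef, 0.881 to 1.71 in aPD1_veh and 0.483 to 0.749 in IgG_lef. Gp9, for a subunit of a platelet adhesion receptor, was at 0.166 to 0.401, 0.882 to 1.88 and 0.617 to 0.724 FPKM. Within IgG_lef both were lowest in replicate 2, the library where the members were highest. Lymphocyte markers summed to 3.84 to 7.04, 3.54 to 4.65 and 3.63 to 7.72 FPKM, with none of 12 past the filter. Monocyte and macrophage markers summed to 288 to 568, 226 to 472 and 231 to 672 FPKM, with 1 of 10 higher in aPD1_lef than in aPD1_veh (Fcgr1, 1.17 ± 0.28, adjusted p = 0.0124). Endothelial markers, at 435 to 524, 476 to 518 and 369 to 415 FPKM, had 0 of 9 called in that comparison. Smooth muscle and pericyte markers summed to 327 to 432, 271 to 324 and 288 to 347 FPKM, with 2 of 5 higher in aPD1_lef than in aPD1_veh. The part of any of these cells in the members' values was not tested.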

How the data were processed

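RNA of mouse heart was measured in 12 labelled samples, of which 11 were used: a column of the deposited table was used where its name matched a label, and 1 column that matched none was left out. The labels' protocols give TRIzol for RNA extraction and a NEBNext Ultra kit for the libraries. The submitters' processing notes list HISAT2, DESeq2 and the genome mm10 with no role or version. The deposited values of the authors were treated as FPKM from their size, non-whole values and unequal totals. No source used here states the unit, and a TPM table with genes removed (0 mitochondrially encoded genes were present) cannot be told apart from it. Read numbers could not be recovered from low values, so depth is unknown, no counting interval is given, and the count-based test that was planned for whole reads was replaced by limma.

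A gene entered the fit if 4 libraries or more reached a value of 1 (12005 of 34714 genes). All 11 libraries were fitted together, as 3 groups and on log2(value + 1), with limma 3.58.1 (eBayes with trend and robust fitting, statmod 1.5.0, R 4.3.3), p-values were adjusted by Benjamini-Hochberg within each comparison, and the threshold was 0.05. Fold differences on that scale understate those of low genes. Other steps used Python 3.11.15, pandas 2.3.3, matplotlib 3.10.9 and NumPy 2.4.6. The fit was tested on simulated data.

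The members and the gene lists were chosen with earlier results of these data known. Members have no test. Named were the 6 members, up to 6 genes per list by smallest p over the 3 comparisons, members of a list that a small count singles out, and the 8 genes nearest in profile. Alas1, Aqp1, Tfrc, Prdx2, Mkrn1, Hmox1, Epor, the transcription factors, Tubb1, Gp9, the genes named for values near 0 and the called markers were named after their values were seen. A few listed genes enter the counts and medians but are not reported here. All 34714 symbols matched RefSeq (GRCm38.p6), which gave positions and upstream bases. Coding bases came from GENCODE M21 (GRCm38).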

Additional observations from a re-analysis of the deposited data

Results flagged for a closer look

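Among 86 sets of 4 libraries examined, 4 held a library whose distance to its nearest neighbour was large for the range of its group by Dixon's test. Chance alone gives this in about 1 of 20 sets, so 4 is no more than chance would give. For Alas2 per 1000 FPKM of globin, aPD1_lef replicate 2 was at 2.90 and the other 3 at 3.13 to 3.16. For Rhd, aPD1_veh replicate 3 was at 10.9 FPKM and the other 3 at 9.26 to 9.48. For Ank1, aPD1_lef replicate 4 was at 38.6 FPKM and the other 3 at 88.1 to 96.0. For Fah, aPD1_lef replicate 2 was at 8.87 FPKM and the other 3 at 6.15 to 6.52. None of the globins, Alas2 or Slc4a1 was such a case on its own FPKM scale, and sets of 3 libraries, as in IgG_lef, were not examined.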

How the results depend on the processing

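The direction of the members' median in each comparison was kept under every setting run, and 0 of the listed genes called reversed. In aPD1_lef against aPD1_veh the members' median was -1.75 to -1.50 when a library was left out, and of the 25 listed genes called 19 were kept in all those fits, 17 under every other setting and 16 under all. The counts there were 2413 to 4316 for all genes and 19 to 31 for listed genes when a library was left out. In aPD1_veh against IgG_lef the ranges were 3 to 478 for all genes, 0 to 6 for listed genes and 0.27 to 1.40 for the members' median. In aPD1_lef against IgG_lef they were 2 to 2328, 0 to 15 and -1.31 to -0.17. The percent of the total in the 4 globins was 1.12 to 2.18 in IgG_lef, 2.28 to 2.64 in aPD1_veh and 0.932 to 0.974 in aPD1_lef. The ratio of alpha to beta globin was 1.10 to 1.13 in aPD1_lef, 0.905 to 0.947 in aPD1_veh and 0.951 to 1.02 in IgG_lef. Hba-a2 stayed at 40.2% to 42.2% of alpha, Hbb-bt at 31.0% to 32.4% of beta, and Alas2 per 1000 FPKM of globin at 3.06 to 3.15, 4.21 to 4.59 and 3.22 to 3.61 in aPD1_lef, aPD1_veh and IgG_lef.

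For aPD1_veh against IgG_lef, the count of all genes was 92 without a filter and 405 in a fit of only the groups compared. Its count of listed genes was 1 after quantile normalization, 6 in a fit of only the groups compared and 1 without the 3 libraries with atrial transcripts. For aPD1_lef against IgG_lef, all genes numbered 277 without a filter, 0 in a fit of only the groups compared and 2180 without the 3 libraries. Listed genes there numbered 8 after quantile normalization, 3 without a filter, 0 in a fit of only the groups compared and 14 without the 3 libraries. Apart from fewer genes or libraries in a fit, the cause was not tested.

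Whether the replicate numbers pair libraries is not in the labels. Same-numbered libraries had correlations of their deviations from -0.29 to 0.19, which cannot settle it. With the replicate block, 3602 genes and 23 listed genes were called in aPD1_lef against aPD1_veh, 0 and 0 in aPD1_veh against IgG_lef and 0 and 0 in aPD1_lef against IgG_lef. The split of aPD1_lef against aPD1_veh depended on scaling: 2181 genes were higher and 1711 lower as reported, 3466 and 1123 with every library at the same total, 3227 and 1191 with that total taken without the 6 members, and 1784 and 2205 after quantile normalization. DESeq2 was not run, since the table holds no read counts, and unknown depth leaves the precision of Slc4a1 and other genes below 1 FPKM unknown.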
